A study of Mus musculus with 2 samples.

Results

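Ribosome biogenesis and polyamine growth genes were followed as a module of 34 named genes in single cells of mouse intestinal organoids. The members were listed by symbol, with earlier results of these data known. Every one of the 34 was found among the 15745 genes of the UMI table. They comprised 2 enzymes of polyamine synthesis, 2 subunits of RNA polymerase I, 4 nucleolar chaperones and scaffolds, 4 proteins of box C/D and 4 of box H/ACA small nucleolar ribonucleoproteins (snoRNPs), and 9 factors each of small and large ribosomal subunit assembly. All 34 are annotated as protein coding.

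Ribosomes are built in the nucleolus, where RNA polymerase I transcribes the precursor of the ribosomal RNAs. Box C/D snoRNPs guide methylation of that precursor and box H/ACA snoRNPs guide its pseudouridylation, while processing factors cleave and fold it as ribosomal proteins are added. Polyamines are small cations that bind RNA and sustain translation, and they are made in quantity by growing cells. Many genes of both pathways are textbook targets of the transcription factor MYC, which dividing crypt cells of the intestine express and mature absorptive cells largely lack.

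The organoids are epithelial cultures in which single cells grow into structures holding stem, proliferating, secretory and absorptive cells. Both groups were wild-type C57BL/6 organoids from mice of 10 weeks, and each group is 1 library, from day 3 or from day 5 of culture. Both grew in a basal medium with EGF, Noggin and R-spondin. To day 3 this medium also held 20% Wnt3a-conditioned medium and 10 µM Y-27632, a ROCK inhibitor, and to day 1 also 3 µM CHIR99021, a GSK3B inhibitor. Cells of the day 5 library then had the basal medium alone from day 3, so day, medium, library and depth cannot be told apart. The labels give no number of mice or wells per library, and without replicates no test or p-value is given.

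Reads were counted as UMIs (unique molecular identifiers, each standing for 1 captured transcript). There were 28764033 UMIs from 798 cells at day 3 and 17349076 UMIs from 1065 cells at day 5, and the median cell had 32064 and 13549 of them. Ribosomal protein genes took 36.5% of UMIs at day 3 and 39.3% at day 5. Absorptive markers were scarce in the day 3 library and abundant in the day 5 library: 38 of 38 measured Enterocyte markers were at least 1.5-fold higher at day 5, with a summed level of 1972 against 20924 UMIs per 1000000 (CPM). Of the Regenerative markers 17 of 18 measured were at least 1.5-fold lower, summing to 3323 and 493 CPM. Of the Proliferating markers 42 of 44 were at least 1.5-fold lower, summing to 3577 and 1600 CPM. No Enterocyte or Proliferating marker was at 0 in either library. Immune and Stromal markers summed to no more than 1.91 CPM in either library, but only 5 of 10 Immune and 3 of 10 Stromal markers were among the genes given.

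Every member was lower in CPM in the day 5 library than in the day 3 library. The 34 genes together held 197240 UMIs, or 0.686% of the total (exact binomial 95% interval 0.683 to 0.689), at day 3, and 49550 UMIs, or 0.286% (0.283 to 0.288), at day 5. All intervals here cover counting error only, not differences between cultures. At day 5, 34 of 34 members were at least 1.5-fold lower and 0 at least 1.5-fold higher, where 36.7% of the 12782 genes with at least 10 UMIs were at least 1.5-fold lower and 15.8% higher. At 2-fold the count was 28 of 34, beside 18.1% of genes lower and 9.83% higher. The median log2 ratio of day 5 over day 3 was -1.36 over the members and -0.33 over all these genes. The exact Poisson 95% intervals of the 2 libraries lay apart, with day 5 lower, for 34 of 34 members and for 44.5% of genes. TMM scaling, which adjusts for a shift of most genes, raised the median of all genes by 0.31 to -0.02 on the log2 scale. With it 29 of 34 members were at least 1.5-fold lower and 0 higher, beside 21.8% of genes lower and 23.3% higher.

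**Figure D1:**
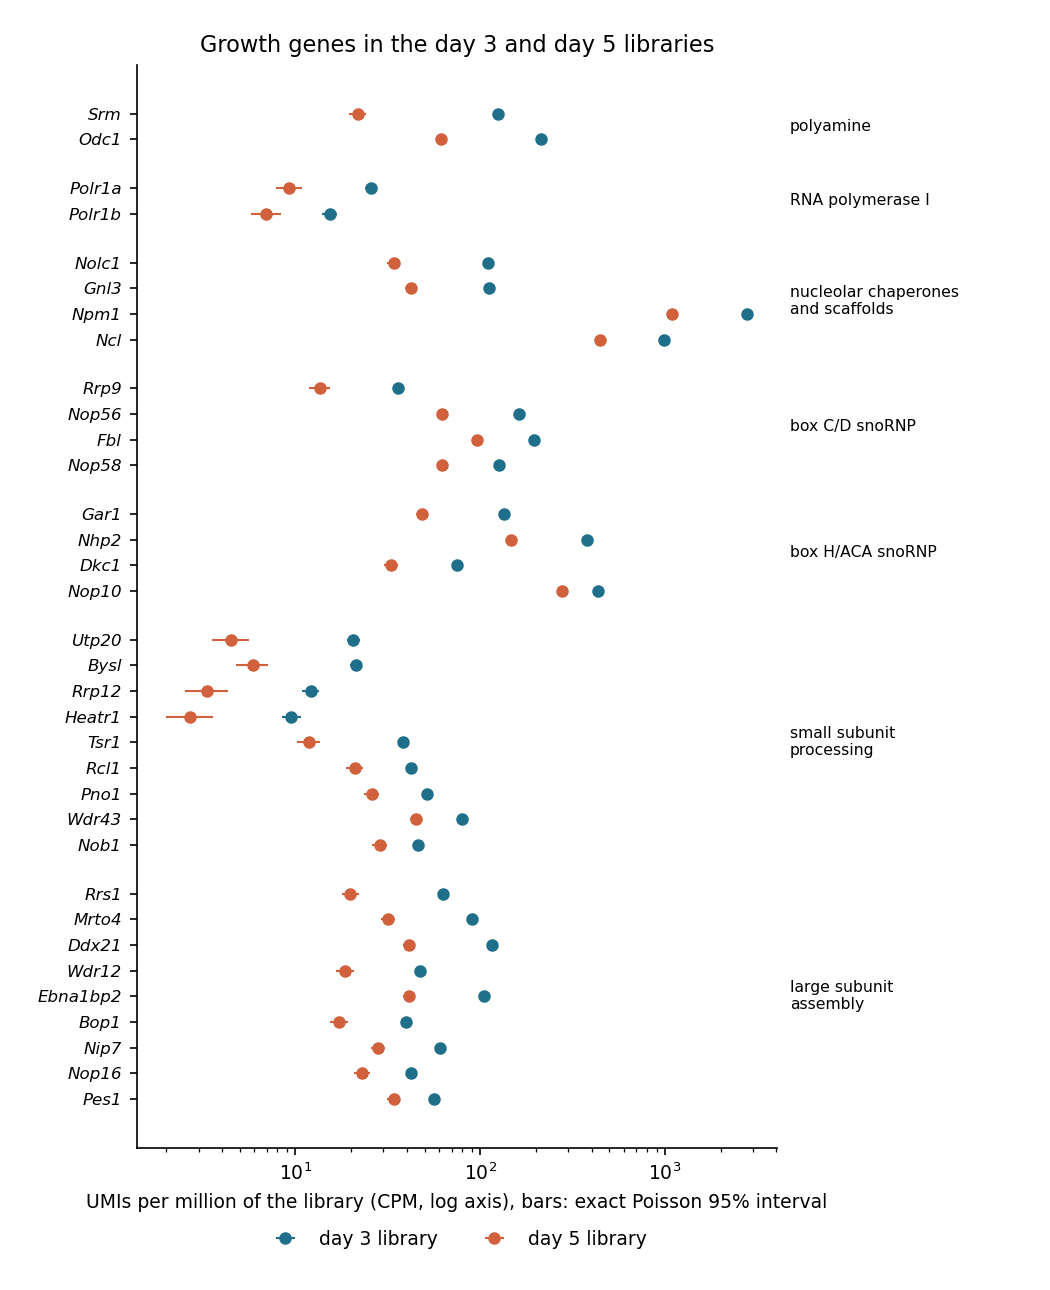
Level of each of the 34 genes in the day 3 and day 5 libraries, in CPM on a log axis, ordered by role and then by ratio; bars are exact Poisson 95% intervals. Each day 5 point lies left of the day 3 point of its gene, with the widest gap for Srm and the narrowest for Nop10.

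The polyamine enzymes stood lowest among the roles, with a median log2 ratio of -2.16 over the 2 genes. Srm, spermidine synthase (ENSMUSG00000006442, chromosome 4, 148591503 to 148594993 on GRCm38), had 3586 UMIs at day 3, or 125 CPM (95% interval 121 to 129). At day 5 it had 378 UMIs, or 21.8 CPM (19.6 to 24.1). This 5.72-fold difference, a log2 ratio of -2.51, was the largest of the 34, and 2.37% of all measured genes had a lower ratio. Odc1, ornithine decarboxylase and the first step of the pathway (ENSMUSG00000011179, chromosome 12, 17544794 to 17551505), had a day 3 level of 214 CPM (208 to 219) and a day 5 level of 61.4 CPM (57.8 to 65.2). Its log2 ratio was -1.80. Both enzymes were thus more than 3-fold lower in CPM at day 5.

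The RNA polymerase I subunits were covered by few UMIs. Polr1a, the largest subunit, had a day 3 level of 25.7 CPM (23.9 to 27.6) and a day 5 level of 9.28 CPM (7.90 to 10.8), with a log2 ratio of -1.47. Polr1b, the second largest subunit, was at 15.4 and 6.97 CPM. The day 5 values rest on 161 and 121 UMIs, and neither interval reached its day 3 counterpart.

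The nucleolar chaperones and scaffolds held most of the module's UMIs. Npm1, nucleophosmin, a chaperone of the granular nucleolus (ENSMUSG00000057113, chromosome 11, 33152287 to 33163206), had a day 3 level of 2784 CPM (2764 to 2803) and a day 5 level of 1093 CPM (1078 to 1109), with a log2 ratio of -1.35. It alone made up 40.6% of member UMIs at day 3 and 38.3% at day 5, and Ncl a further 14.4% and 15.6%. Ncl, nucleolin, which binds the ribosomal RNA precursor, was at 989 and 444 CPM. Nolc1, a scaffold that brings snoRNPs to the nucleolus, was at 110 and 34.2 CPM, the lowest ratio of the 4 at -1.69. Gnl3, nucleostemin, a nucleolar GTPase of stem and tumour cells, was at 112 and 42.3 CPM. Summed sets are weighted by Npm1 and Ncl, so the sum was also taken without them: the other 32 members held 0.308% of UMIs at day 3 and 0.132% at day 5.

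The snoRNP proteins were lower by about the same log2 amount in both snoRNP kinds, with medians of -1.21 for box C/D and -1.28 for box H/ACA. Of the box C/D proteins Fbl, fibrillarin, the methyltransferase, had a day 3 level of 197 CPM (191 to 202) and a day 5 level of 95.7 CPM (91.1 to 100.4), with a log2 ratio of -1.04. Its core partners Nop56 and Nop58 were at 163 and 62.1 CPM and at 127 and 62.0 CPM, and Rrp9, a protein of the U3 snoRNP, at 35.7 and 13.5 CPM. Of the box H/ACA proteins Dkc1, dyskerin, the pseudouridine synthase, was at 75 and 32.9 CPM, Nhp2 at 380 and 147 CPM and Gar1 at 134 and 48.4 CPM. Nop10, the smallest core protein, had levels of 432 CPM (424 to 439) and 277 CPM (269 to 285). Its log2 ratio of -0.64 was the highest of the 34, and 33.6% of all measured genes had a lower ratio. snoRNA genes lie within several members, Ncl, Nop56, Nop58 and Gnl3 among them, on the same strand. None of these snoRNAs is a row of the table.

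The small subunit factors spread most widely, from -2.19 to -0.68 on the log2 scale. Utp20, a large scaffold of the small subunit processome (ENSMUSG00000004356), had a day 3 level of 20.6 CPM (19.0 to 22.3) and a day 5 level of 4.50 CPM (3.55 to 5.61). Bysl, bystin, which acts late in small subunit maturation, was at 21.3 and 5.88 CPM, a log2 ratio of -1.85. Rrp12, an export factor, was at 12.1 and 3.34 CPM, also -1.85, and Heatr1, a processome scaffold needed for transcription by RNA polymerase I, at 9.53 and 2.71 CPM, -1.80. These 4 with Srm made up the 5 lowest ratios, and the 4 had the fewest UMIs of the 34 at day 5, with 47 to 102 each. Tsr1, a GTPase-like factor of the cytoplasmic steps, was at 38.1 and 11.8 CPM. Differences were smaller for Rcl1 at 42.4 and 20.9 CPM and for Pno1, a binding partner of the nuclease Nob1, at 51.3 and 26.0 CPM. Wdr43, a processome component with the most UMIs of this role, had levels of 79.9 CPM (76.7 to 83.3) and 44.8 CPM (41.7 to 48.0), with a log2 ratio of -0.84. Nob1, the nuclease that makes the mature 3′ end of the small subunit RNA, had levels of 45.8 CPM (43.4 to 48.4) and 28.6 CPM (26.1 to 31.2), with a log2 ratio of -0.68.

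The large subunit factors had a median log2 ratio of -1.33. Ddx21, an RNA helicase of the nucleolus, held the most UMIs of the role, with a day 3 level of 116 CPM (112 to 120) and a day 5 level of 41.4 CPM (38.5 to 44.6), and its log2 ratio was -1.48. Rrs1, which helps to bring the 5S particle into the subunit, was the lowest of the 9 at 62.8 and 19.8 CPM, -1.66. Mrto4, the placeholder for a stalk protein, was at 90.0 and 31.8 CPM. Ebna1bp2 was at 105 and 41.4 CPM, Nip7 at 60.7 and 28.1 CPM and Nop16 at 42.3 and 23.0 CPM. Pes1, Bop1 and Wdr12 form the PeBoW complex of large subunit maturation. Wdr12 was at 47.3 and 18.6 CPM and Bop1 at 39.7 and 17.2 CPM, with ratios of -1.35 and -1.20. Pes1 had levels of 56.5 CPM (53.7 to 59.3) and 34.1 CPM (31.4 to 36.9). Its log2 ratio was -0.73, above those of both partners.

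Of the other genes of ribosome biogenesis, taken from 4 lists, most were also lower at day 5, by less than the members. Over 108 measured genes 85 were at least 1.5-fold lower and 0 higher, beside 36.7 and 15.8% of all genes. Their median log2 ratio was -0.93. With TMM scaling the counts were 57 and 1, beside 21.8 and 23.3% of all genes. The counts of the single lists below stand beside the same shares. Of the other small subunit factors 37 of 42 were lower, Lyar, a nucleolar zinc finger protein (-2.12), and Tcof1, a cofactor of ribosomal RNA transcription (-1.68), having the lowest ratios, and Rrp36 (0.22) and Ddx49 (0.05) the highest. Of the other large subunit factors 30 of 38 were lower, from Rrp1b (-1.76) and Mdn1, the giant ATPase that remodels the subunit (-1.75), to Surf6 (-0.36) and Nsa2 (0.51). Nsa2 is the 1 gene that TMM scaling put at least 1.5-fold higher. Of the other RNA polymerase I genes 10 of 18 were lower, from the initiation factor Rrn3 (-1.32) and Polr1e (-1.14) to Taf1d (-0.24) and Polr2l (0.15), a subunit shared by all 3 nuclear polymerases. With TMM scaling 5 of these 18 were lower, beside 21.8% of all genes and against 36.7% without it. Of the snoRNP assembly factors 8 of 10 were lower, from Naf1 (-1.76) and Ruvbl1 (-1.27) to Shq1 (-0.58) and Pih1d1 (-0.56).

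The remaining polyamine genes were spread on both sides of 0. Of 17 measured, 8 were at least 1.5-fold lower and 1 higher, with a median log2 ratio of -0.50, against 36.7 and 15.8% of all genes and their median of -0.33. With TMM scaling 5 were lower and 2 higher, against 21.8 and 23.3% of all genes. The lowest were Smox, spermine oxidase, at 10.3 and 3.23 CPM (-1.66), and Mtap, which salvages the methylthioadenosine left by spermidine and spermine synthesis, at 44.6 and 14.5 CPM (-1.62). Eif5a, the translation factor that carries hypusine, an amino acid made from spermidine, was at 1056 and 382 CPM (-1.47). Its modifying enzymes Dhps and Dohh had ratios of -0.95 and -0.62, and the polyamine synthesis enzymes Amd1 and Sms -0.90 and -0.86. The highest with at least 100 UMIs were Oaz2, an antizyme that restrains ornithine decarboxylase, at 13.6 and 19.1 CPM (0.50), and Azin1, an antizyme inhibitor, at 43.3 and 46.6 CPM (0.11). Sat1, which acetylates polyamines for export, was at 128 and 126 CPM (-0.02). The 1 higher gene, Azin2, had 9 UMIs at day 3 and 20 at day 5. Eif5a, Dhps, Dohh, Amd1, Sms, Sat1 and Azin2 were picked after their values were seen.

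The MYC family held both higher and lower genes. Of 13 measured, 2 were at least 1.5-fold lower and 3 higher, beside 36.7 and 15.8% of all genes. The median log2 ratio was -0.11. With TMM scaling the counts were 1 and 4, beside 21.8 and 23.3% of all genes. Myc had a day 3 level of 34.8 CPM (32.7 to 37.1) and a day 5 level of 25.9 CPM (23.6 to 28.4), with a log2 ratio of -0.42. Mycn, the second MYC paralogue, was at 1.91 and 0.922 CPM (-1.02, from 55 and 16 UMIs), and Max, the partner of all MYC proteins, at 53.6 and 37.1 CPM (-0.53). Mga was the lowest of the family after Mycn, at -0.77. The highest were Mxd4, an antagonist that competes for Max, at 12.8 and 41.0 CPM (1.68), and Mlxipl, a sugar-responsive relative, at 39.1 and 87.4 CPM (1.16). The structural ribosomal protein genes centred near 0. Of 82 measured 4 were at least 1.5-fold lower and 10 higher, beside 36.7 and 15.8% of all genes. Their median log2 ratio was 0.03, or 0.35 with TMM scaling, against -1.36 for the members.

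**Figure D2:**
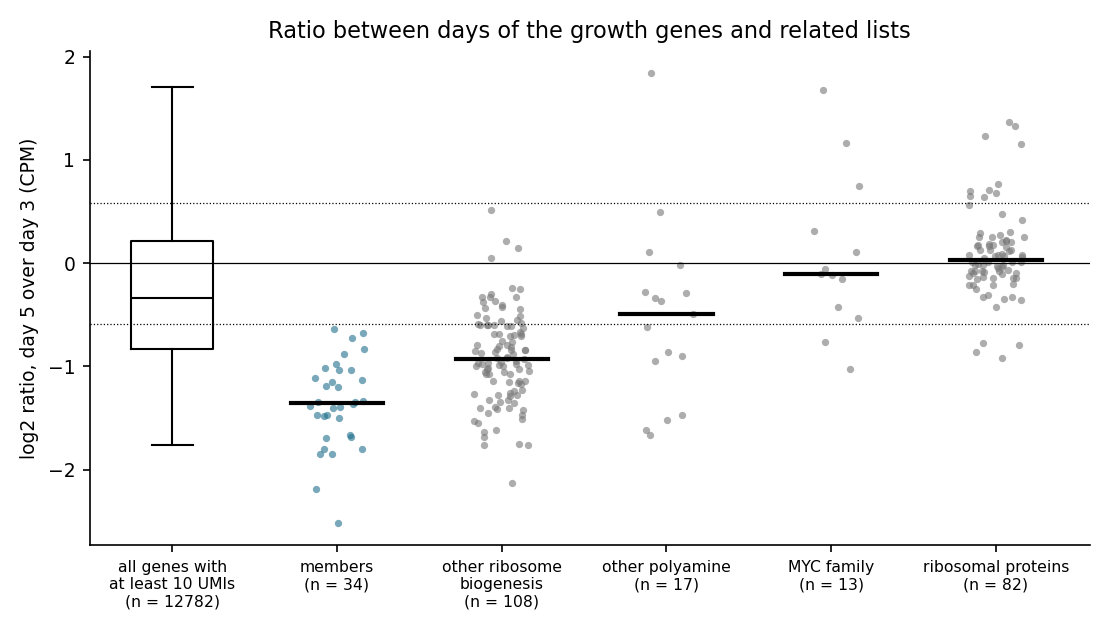
Log2 ratio of day 5 over day 3 for the members and related lists (points: genes, thick lines: medians) and for all genes with at least 10 UMIs (box: quartiles, whiskers: percentiles 5 and 95); dotted lines mark 1.5-fold. All 34 members lie below the lower dotted line, while the ribosomal proteins centre on 0.03.

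The E-box CACGTG, the palindrome that dimers of MYC and MAX bind, was looked for in RefSeq promoter windows running from 250 bases before to 50 bases after each start (GRCm38.p6). Because the motif is its own reverse complement, both strands were read at once. Of the 34 members 28 had a window, and 5 of these (17.9%, exact binomial 95% interval 6.06 to 36.9) held the motif, against 8.09% of 27025 genes. All 5 matches lay in the 50 bases after the start: there the shares were 17.9% of members and 1.28% of genes, and in the 250 bases before the start 0 of 28 members and 6.86% of genes. The split of the window was chosen after the positions were seen. Each match falls in an exon annotated as untranslated in GENCODE M21, and 30 bases of the coding strand around each are shown, with the E-box in capitals.
Utp20: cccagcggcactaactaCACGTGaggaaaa
Pes1: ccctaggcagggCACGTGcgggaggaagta
Pno1: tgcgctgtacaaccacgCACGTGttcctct
Tsr1: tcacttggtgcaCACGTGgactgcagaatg
Wdr43: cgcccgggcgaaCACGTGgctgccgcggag
The stretch of Utp20 is chr10:88826765-88826794 on the minus strand, with the first motif base 38 bases from the start, and that of Pno1 is chr11:17211540-17211569 on the minus strand, also at 38. Those of Pes1 (chr11:3963965-3963994, at 3), Tsr1 (chr11:74898092-74898121, at 25) and Wdr43 (chr17:71616220-71616249, at 18) are on the plus strand. The day ratios of these 5 genes ran from -2.19 for Utp20 to -0.73 for Pes1, so they included the second lowest and the third highest of the 34. The windows of Odc1 and Ncl held no CACGTG, and bases beyond the windows were not searched. Srm, Npm1, Fbl, Rrp12, Bop1 and Rrs1 had no window. With the related letters CACGCG and CGCGTG added, 13 of 28 members (46.4%, interval 27.5 to 66.1) and 17.2% of genes had a match. The 27025 genes are all those with a window, more than the 15745 of the UMI table, so they include genes not measured here. The windows were not matched for base composition. No binding was measured, and a match of letters is not a bound site.

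For the comparison across cells, each library was clustered alone with the members and the other growth genes kept out of the genes that defined the clusters. A cluster was named when at least 3 of its 25 leading genes were markers of a type. In addition, no other type could have more markers among the first 10 leading genes. Clusters in which several secretory types reached 3 were named mixed secretory. Day 3 gave Regenerative-like cells (cluster 9, 51 cells, with Ly6a, Anxa1 and Anxa3 among the leading genes), Stem-like cells (clusters 4 and 8, 155 cells, Ascl2 and Gkn3), Proliferating-like cells (clusters 1 and 2, 226 cells, led by mitotic and by S phase genes) and Enterocyte-like cells (clusters 3 and 6, 171 cells). Day 3 cluster 9 had 3 Regenerative markers among its 25 and none among its first 10. Day 3 cluster 8 had more Proliferating than Stem markers among its 25 (6 against 4), and its name rests on 3 Stem markers among the first 10. Day 3 cluster 3 held Proliferating markers at 3704 CPM, close to the Proliferating-like cells at 4158. Day 5 gave Proliferating-like cells (clusters 3 and 7, 223 cells), Enterocyte-like cells (clusters 1 and 2, 440 cells) and 15 Regenerative-like cells (cluster 9). No day 5 cluster met the rule for stem cells in this clustering, although a cluster with 62 cells did so at resolution 1.5, and a cluster with 115 cells did so with growth genes allowed among the variable genes. Nearest to the rule by leading genes was day 5 cluster 4 (147 cells, led by Marcksl1, Pla2g4a and Ung, with Gkn3 and Myc among the 25). It stayed unnamed, as did day 3 cluster 5 (75 cells, led by Mal, Lama3 and Sprr1a). Summed Stem markers were at 1488 CPM in day 5 cluster 4 and 1643 in day 5 cluster 7. Lgr5 was at 28.9 CPM (22.9 to 36.0) in cluster 4 and 63.2 CPM (48.7 to 80.7) in cluster 7. Cluster 7, counted as Proliferating-like, was thus higher in both stem measures. A search for doublets with Scrublet called 5 cells at day 3 and 7 at day 5, so doublets cannot be taken as removed.

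At day 3 the module's share of UMIs was highest in Regenerative-like cells and lowest in Enterocyte-like cells. Regenerative-like cells held 0.897% (exact binomial 95% interval 0.883 to 0.911), with 0.562, 0.868 and 1.25% as the lowest, median and highest cell. Stem-like cells held 0.814% (cells 0.504, 0.803 and 1.14), Proliferating-like cells 0.745% (0.437, 0.734 and 1.07) and Enterocyte-like cells 0.497% (0.0949, 0.503 and 0.853). The cells of these 4 classes overlap, and the class medians are ordered. Cells in the mixed secretory cluster, with Paneth and goblet markers, held 0.579%.

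The place of the Regenerative-like cells depends on which cells are named so. Day 3 cluster 5 held more of the Regenerative markers than cluster 9 (13691 against 5300 CPM), and its module share was 0.537%, with cells from 0.123 to 1.13%. With cluster 5 added, an option chosen after the values were seen, the class held 0.668%, below Stem-like cells. It held 0.634% at a clustering resolution of 0.6 and 0.690% when both libraries were clustered together, but 0.969% at resolution 1.5, while Stem-like cells stayed between 0.807 and 0.812% in those 3 clusterings. Between the clusters, 19 of 34 members were at least 1.5-fold higher in cluster 9 than in cluster 5, beside 15.8% of genes, and 1 lower, beside 32.3%. Nop16 (75.5 against 28.8 CPM), Gar1 (201 against 81.4) and Srm (203 against 89.4) differed most. Heatr1 (8.95 against 13.8 CPM), Tsr1 (36.3 against 48.4), Bop1 (40.3 against 53.2) and Utp20 (20.7 against 26.6) were lower in cluster 9. Polr1b was also lower there, by a small margin, and of all these Heatr1 alone was lower by 1.5-fold. Proliferating markers summed to 4044 CPM in cluster 9 against 2067 in cluster 5, and Enterocyte markers to 1021 against 3829. The part of these markers was not tested. Against Enterocyte-like cells cluster 5 had 20 of 34 members at least 1.5-fold higher, beside 34.9% of genes, with Bysl highest (29.8 against 10.4 CPM) and Npm1 lowest (1994 against 2566 CPM). Cluster 5 also had the lowest ribosomal protein share of the day 3 clusters, at 31.6% of UMIs against 35.1% in cluster 9.

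**Figure D3:**
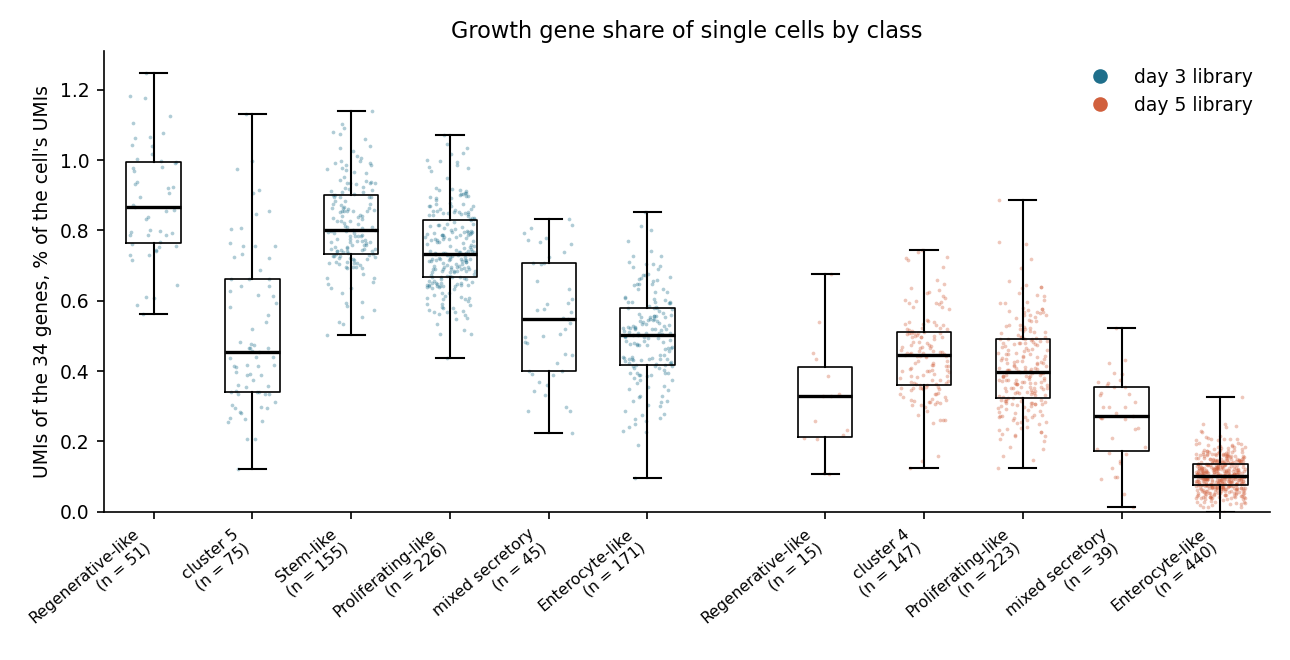
Share of each cell's UMIs that the 34 genes held, by class and library (points: cells, boxes: quartiles and median, whiskers: lowest and highest cell). At day 5 the highest Enterocyte-like cell reached 0.326%, below the lower quartile of 0.417% in day 3 Enterocyte-like cells.

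Member by member, Enterocyte-like cells were the lowest of the 4 day 3 classes for 34 of 34 members. Regenerative-like cells, here cluster 9 alone, were the highest for 25, Stem-like cells for 6 and Proliferating-like cells for 3. These ranks take no account of counting error and were not taken over all genes. Against Enterocyte-like cells, 30 of 34 members were at least 1.5-fold higher in Stem-like cells (21.1% of genes), 29 in Proliferating-like cells (18.2%) and 31 in Regenerative-like cells (25.6%), and none was 1.5-fold lower. Median log2 ratios were 0.91, 0.93 and 1.21, where those of all genes were 0.07, 0.09 and 0.13. Srm was at 203 CPM in Regenerative-like, 139 in Stem-like, 153 in Proliferating-like and 50.1 in Enterocyte-like cells. Odc1 was at 351, 194, 228 and 101 CPM in that order. Nob1 was the flattest member, at 48.1, 47.0, 46.5 and 45.3 CPM.

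The Stem-like and Proliferating-like classes of day 3 were not apart in cell cycle markers: Proliferating markers summed to 4305 CPM in Stem-like cells, and to 5645 in cluster 8, against 4158 in Proliferating-like cells. Between these classes no member differed by 1.5-fold, beside 6.42% of genes higher and 8.05% lower in Stem-like cells. The median log2 ratio was 0.03. Dkc1 was the member that leaned most to Stem-like cells, at 114 against 83.9 CPM. Against Regenerative-like cells 5 members were at least 1.5-fold lower in Stem-like cells, beside 13.4% of genes, so that share is near the background. The counts against Proliferating-like cells were alike, with 4 of 34 lower than in Regenerative-like cells, beside 11.2% of genes, and 0 higher, beside 9.89%. The 5 in Stem-like cells were Rrp12 (9.40 against 21.2 CPM), Bysl (18.6 against 39.1), Odc1 (194 against 351), Ddx21 (107 against 164) and Nop16 (49.9 against 75.5).

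At day 5 the gap between dividing and absorptive cells was wider. Proliferating-like cells held 0.410% of their UMIs in the module (interval 0.405 to 0.416; cells 0.125, 0.399 and 0.887), cluster 4 held 0.444% (0.436 to 0.452) and Enterocyte-like cells 0.112% (0.109 to 0.115; cells 0, 0.103 and 0.326). The 15 Regenerative-like cells held 0.339% (0.321 to 0.358) and the mixed secretory cells 0.289%. Clusters 5 and 6, led by Edn2 and Depp1 among others and left unnamed, lay between, at 0.234 and 0.174%. Enterocyte markers summed to 3430 CPM in cluster 4, 3862 in Proliferating-like cells, 13726 in cluster 5, 26448 in cluster 6 and 52904 in Enterocyte-like cells, so in these 5 groups the module was lower where the absorptive markers were higher. The mixed secretory cells, at 5147 CPM, and the Regenerative-like cells, at 9324 CPM, lay between Proliferating-like cells and cluster 5 in both measures. Of these 2 groups the Regenerative-like cells had both the higher absorptive markers and the higher module share. Fabp1, an enterocyte gene, was at 553 CPM in Proliferating-like and 10299 in Enterocyte-like cells of day 5, and the part of free RNA in values of either class was not tested. The ribosomal protein share was 43.2% in Proliferating-like and 30.4% in Enterocyte-like cells at day 5, whereas at day 3 it was 36.8 and 37.9%.

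In Proliferating-like cells of day 5, 34 of 34 members were at least 1.5-fold higher than in Enterocyte-like cells, beside 37.8% of genes, with a median log2 ratio of 2.45 against 0.22 for all genes. Cluster 4 also had 34 of 34 higher, beside 36.2% of genes, with a median of 2.72. Srm was at 39.5 CPM in Proliferating-like, 38.4 in cluster 4 and 2.15 in Enterocyte-like cells. Gar1 was at 84.1, 91.1 and 5.87 CPM, and Dkc1 at 54.0, 62.9 and 4.11 CPM. Npm1 was at 1403, 1551 and 556 CPM, and Bop1 had the smallest difference, at 20.9, 24.1 and 12.3 CPM. Between cluster 4 and Proliferating-like cells the members' median log2 ratio was 0.10. Rrp12 alone was at least 1.5-fold higher in cluster 4, beside 8.24% of genes. Cluster 4 had fewer Proliferating markers, at 1195 against 4133 CPM, and more Enteroendocrine markers, at 2355 against 26.2 CPM. Against cluster 5, 32 of 34 members were higher in cluster 4, beside 26.3% of genes, with a median of 1.27. In the 15 Regenerative-like cells 1 member was at least 1.5-fold higher than in Proliferating-like cells, beside 32.8% of genes, and 6 lower, beside 18.8%, and neither share exceeded that of all genes.

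The module also varied within the Enterocyte-like classes. At day 3 cluster 3, with Enterocyte markers at 2395 CPM, held 0.523% and cluster 6, with the same markers at 8212 CPM, held 0.451%. In cluster 3 15 of 34 members were at least 1.5-fold higher than in cluster 6, beside 19.2% of genes, and 0 lower, with a median of 0.56. At day 5 cluster 2 (42192 CPM of Enterocyte markers) held 0.132% and cluster 1 (64757 CPM) held 0.0908%. There 11 of 30 measured members were higher in cluster 2, beside 10.1% of genes, and 1 lower. The mixed secretory cells held more than Enterocyte-like cells on both days: 12 of 34 members were higher at day 3, beside 17.1% of genes, and 29 of 31 measured at day 5, beside 32%. Their median log2 ratios were 0.48 and 2.25.

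**Figure D4:**
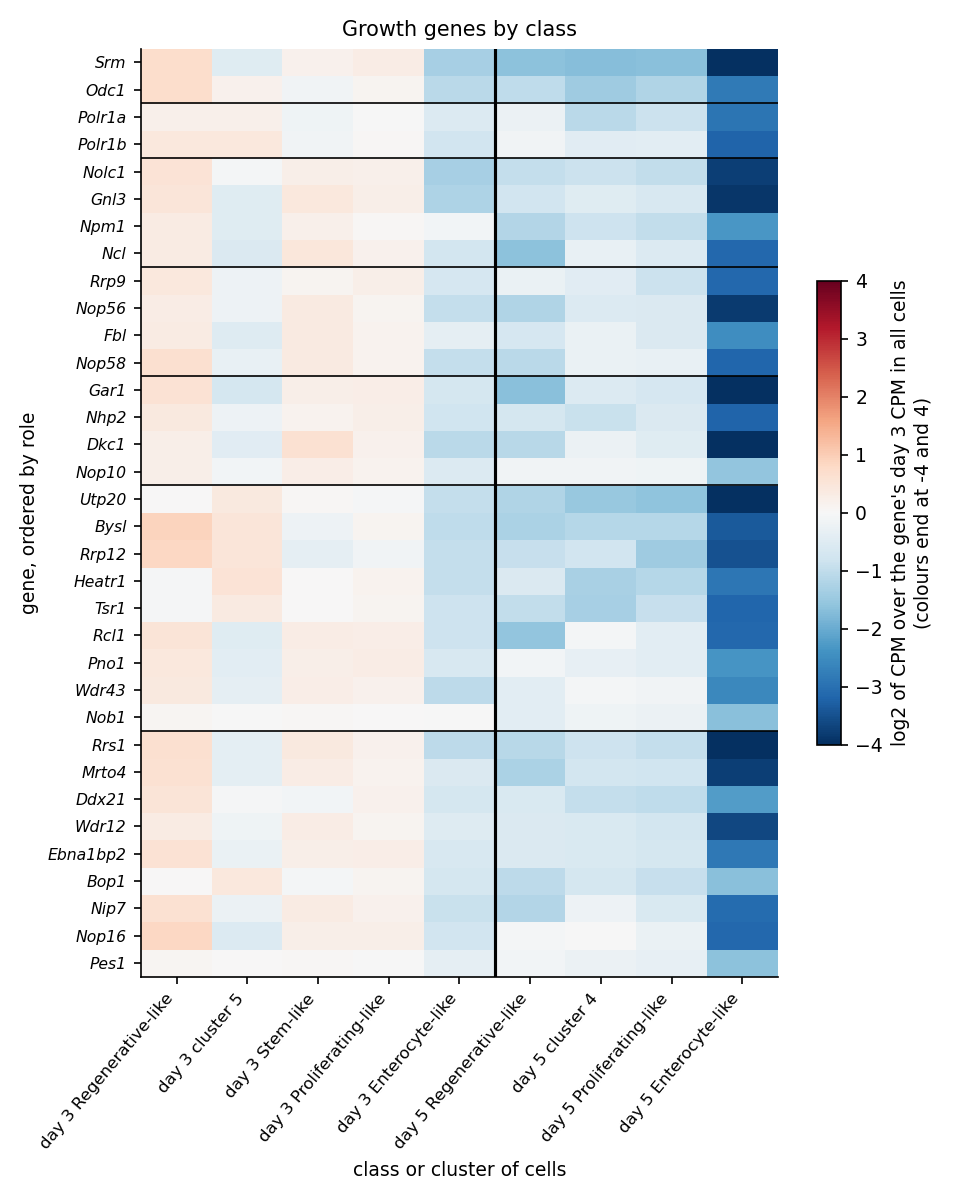
Log2 of the level of each gene (rows, grouped by role) in each class or cluster (columns), relative to its level over all day 3 cells. Day 5 Enterocyte-like cells form the darkest column, and in day 3 cluster 5 Heatr1, Utp20, Tsr1 and Bop1 lie above their day 3 level while Gar1 and Nop16 lie below.

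Classes named alike were also compared between the days. In Enterocyte-like cells 34 of 34 members were at least 1.5-fold lower at day 5, beside 40.5% of genes, with a median log2 ratio of -2.35 against -0.34 for all genes. In this class Srm was at 50.1 CPM at day 3 and 2.15 at day 5 (-4.48), Utp20 at 10.6 CPM (7.98 to 13.8) and 0.391 CPM (0.0474 to 1.41, from 2 UMIs) and Bop1 at 24.1 and 12.3 CPM (-0.96, the highest). None of the 440 day 5 Enterocyte-like cells lay above the lower quartile of those of day 3. The 2 classes are not alike in maturity: their Enterocyte markers summed to 4502 and 52904 CPM and their Proliferating markers to 2672 and 141 CPM. Median depth was 27669 and 10822 UMIs per cell. The part of these differences in the result was not tested.

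In Proliferating-like cells 27 of 34 members were at least 1.5-fold lower at day 5, beside 24.6% of genes, with a median log2 ratio of -0.87 against -0.20. Here the Proliferating markers summed to nearly equal levels, 4158 CPM at day 3 and 4133 at day 5. Srm was again the lowest, at 153 and 39.5 CPM (-1.95), followed by Utp20 at 20.0 and 6.70 CPM (-1.56). Nob1, at 46.5 and 38.9 CPM (-0.26), and Nop10, at 472 and 382 CPM (-0.31), were the highest. Of the 223 day 5 cells 5 lay above the lower quartile of the day 3 cells. Enterocyte markers in this class summed to 1196 and 3862 CPM and median depth was 32328 and 21032 UMIs, and their part was not tested. Day 5 cluster 4 against day 3 Stem-like cells gave 23 of 34 lower, beside 28.2% of genes, with a median of -0.84. From the Stem-like cells to cluster 4 the Stem markers went from 2148 to 1488 CPM and the Enterocyte markers from 840 to 3430. The Enteroendocrine markers went from 26.2 to 2355 CPM and the Proliferating markers from 4305 to 1195. The Regenerative-like cells gave 27 of 34 lower, beside 29.6%, with a median of -1.19, on 15 cells at day 5. Their Enterocyte markers summed to 1021 and 9324 CPM and their Proliferating markers to 4044 and 862 CPM. The part of these markers in either result was not tested.

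Myc differed between the classes on both days. At day 3 it was at 45.9 CPM in Regenerative-like, 46.5 in Stem-like, 37.5 in Proliferating-like and 19.8 in Enterocyte-like cells. At day 5 it was at 58.2 CPM in cluster 4, 37.0 in Proliferating-like and 2.54 in Enterocyte-like cells, the last from 13 UMIs. In Proliferating-like cells the intervals of Myc overlapped between the days (33.4 to 41.9 and 31.9 to 42.6 CPM). The module's share in these cells was 0.745 and 0.410%. MYC protein was not measured, and a part of Myc in the module's levels was not tested.

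Across single cells, thinned at random to 6500 UMIs each, the module's sum ran from 5 to 83 UMIs at day 3 with a median of 44, and from 0 to 54 at day 5 with a median of 13. The cells of a library share its preparation and depth, and the correlations below describe them without a test. Spearman's rho of a member with the sum of the other members had a median of 0.19 over the 34 at day 3 (798 cells) and 0.27 at day 5 (1065 cells). Ncl was highest on both days, at 0.51 and 0.71, and Npm1, with the most UMIs, was at 0.32 and 0.62. Nop10, which followed Ncl in UMIs, was at 0.21 and 0.41, so the order was not that of the counts alone. With Fabp1, the fatty acid binding protein of enterocytes, the module's sum had a rho of -0.27 at day 3 and -0.76 at day 5. With the ribosomal protein sum it was -0.10 and 0.68, and with the cell's total before thinning 0.15 and 0.62.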

How the data were processed

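Single-cell libraries were made with the droplet-based Chromium system, whose reads start from the 3′ end of transcripts, per the labels' protocols. The authors deposited a matrix of UMI counts, with 15745 genes in rows and 1863 cells in columns, and log2 values of the same cells. Cell Ranger 1.3.0 and the build mm10 are named, per the submitters' processing notes. How genes and cells were filtered is not given in the sources used here. Deposited cell names carry no barcode sequence, and 0 cell numbers were shared by the libraries.

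UMI counts were summed per library or class and scaled to 1000000 UMIs (CPM). Log2 ratios had 0.5 UMI added to each sum. Symbols came from the reference gene names, matching 15681 identifiers. Cells were clustered per library (2000 variable genes, 30 components, 15 neighbours, Leiden resolution 1) in scanpy 1.11.5. Python 3.11.15, numpy 2.4.6, scipy 1.17.1, edgeR 4.0.16 (TMM), DESeq2 1.42.0 (size factors only) and matplotlib 3.10.9 were used. The 1.5-fold rule was run on simulated library sums with counting error and known larger changes. Differences between cells or cultures were not simulated.

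Members and lists were chosen with earlier results of these data known. Genes given with full values were the 5 lowest and 3 highest ratios, the most abundant of each role, and the 2 lowest and 2 highest of each other list with at least 100 UMIs, with Myc, Mycn and Max always. Alternatives comprised other scalings, cell filters, gene minimums and clusterings.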

Additional observations from a re-analysis of the deposited data

How the results depend on the processing

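Each member's log2 ratio of day 5 over day 3 stayed below 0 in 8 alternatives (272 of 272 values, -3.00 to -0.18). These values are the same 34 genes of the same 2 libraries computed again, not separate observations. The median of all genes was also below 0 in each alternative. Of the 272 values 241 were at least 1.5-fold lower, where 7.79 to 42.3% of genes were, depending on the alternative. The members' median, with that of all genes in brackets, was -1.04 (-0.02) with TMM factors and -1.08 (-0.05) with DESeq2 size factors. With each cell weighed alike it was -1.61 (-0.37). The mean of the authors' log2 values gave -0.75 (-0.07), with 20 of 34 then at least 1.5-fold lower, beside 7.79% of genes. Day 5 cells at or above the day 3 minimum of UMIs gave -0.96 (-0.28). The median was -1.11 (-0.33) without Enterocyte-like cells, -1.63 (-0.42) without Proliferating-like cells and -1.56 (-0.37) after thinning. For the other ribosome biogenesis genes the median was -0.61 with TMM factors, -0.64 with DESeq2 size factors, -0.39 with the authors' log2 values and -0.63 with the deeper day 5 cells. The medians of all genes in brackets above stand beside these too. Their count of lower genes was 29 with the authors' log2 values (7.79% of all genes), 55 of 71 with at least 20 CPM (36.5%) and 43 at 2-fold (18.1%). Their count of higher genes was 1 with TMM factors, with DESeq2 size factors, with the deeper day 5 cells and without Enterocyte-like cells. In that order 23.3, 22.4, 13.2 and 14.0% of all genes were higher.

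Shares of UMIs (percent) are given in the order all, Regenerative-like, Stem-like, Proliferating-like and Enterocyte-like cells at day 3. Without mitochondrial and ribosomal protein UMIs they were 1.18, 1.46, 1.40, 1.27 and 0.885, and at day 5 (no Stem-like class at resolution 1) 0.528, 0.579, 0.800 and 0.185. The median over cells moved the first 4 to 0.700, 0.868, 0.803 and 0.734, and at day 5 it gave 0.195 for all, 0.399 for Proliferating-like and 0.103 for Enterocyte-like cells. For day 3 Regenerative-like cells other clusterings gave 0.634 (resolution 0.6), 0.969 (resolution 1.5), 0.690 (libraries together) and 0.979 (growth genes allowed), and 0.668 with cluster 5 added. With growth genes allowed, the other day 3 classes gave 0.806, 0.774 and 0.515 and day 5 Enterocyte-like cells 0.118. At resolution 0.6 Proliferating-like cells gave 0.708 and Enterocyte-like cells 0.472 at day 3, and the latter 0.118 at day 5. At resolution 1.5 Proliferating-like cells gave 0.771 at day 3 and 0.397 at day 5, day 5 Enterocyte-like cells 0.108 and day 5 Regenerative-like cells 0.260. Day 5 cells at or above the day 3 minimum, an option added after the data were seen, gave 0.358 for all, 0.361 for Regenerative-like and 0.130 for Enterocyte-like cells. The share of member promoters with an E-box was 0% in the 250 bases before the start and 46.4% with CACGCG and CGCGTG added. Beside these stood 6.86 and 17.2% of all genes with a window. The cause of each shift was not tested. No paired analysis was possible because each day is 1 library and no result comes from a test.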
